A study of Homo sapiens with 6 samples.

Results

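The collagen genes were compared between U2OS cells treated with an inhibitor of poly(ADP-ribose) glycohydrolase (PARG) and solvent-treated U2OS cells. Members were all protein-coding genes in the count files whose identifier maps to a symbol made of COL, a type number, A and a chain number. This gave 44 genes of the 60708 gene identifiers in the files: 11 of the fibrillar class, 9 of the network-forming class and 24 of other classes. U2OS is an established human osteosarcoma line, called wild type by the submitters, and every culture was kept in serum-supplemented DMEM with penicillin-streptomycin. The control group, called DMSO here, received the solvent alone and the treated group, called PARGi, received 25 µM PDD00017273, which blocks the enzyme that degrades poly(ADP-ribose). Treatment lasted 4 days, and each group had 3 strand-specific total RNA libraries, described as biological triplicates. Whether the triplicates came from separate cultures is not stated, so the p-values measure the spread between these libraries.

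Collagens are built from alpha chains that wind around each other into a triple helix. Fibrillar collagens line up side by side into the fibres of bone, skin and tendon, network collagens form sheets such as the basement membrane, and the remaining classes coat fibrils, form beaded filaments, anchor epithelia or span the cell membrane. Osteoblasts, the lineage that osteosarcoma resembles, are known for making type I collagen, a trimer in which COL1A1 chains outnumber COL1A2 chains. Newly made chains are hydroxylated, glycosylated and folded in the endoplasmic reticulum, trimmed after secretion and cross-linked by lysyl oxidases.

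The libraries held 60286931 to 80605145 counts. Levels are CPM, each count as a share of the scaled library total, and levels of different genes are compared only per kilobase of exon (RPKM). The label of the line was checked against marker lists. Of 7 osteoblast lineage markers, RUNX2 was at 83.3 CPM and SPARC at 1677 CPM in DMSO, whereas IBSP had no count in any library. The means of BGLAP and SP7 were under 0.1 CPM in both groups. That list summed to 1748 to 1776 CPM in DMSO and 1648 to 1669.5 CPM in PARGi, mostly SPARC. Of 4 members tested, 1 (ALPL) was higher and 3 (RUNX2, SPARC and SPP1) were lower. Markers of other cell types also differed, where 24.3% of all tested genes were called (edgeR adjusted p under 0.05). Of 4 tested epithelial markers 3 were higher (sum 383 to 391 CPM in DMSO and 464 to 472 CPM in PARGi, nearly all KRT8 and KRT18), while EPCAM was lower in every PARGi library but not called (log2 fold change -0.22 with SE 0.0945, adjusted p = 0.0912 by edgeR). Of 4 tested fibroblast markers 3 were higher and 1, PDGFRA, was lower (sum 341 to 356 CPM in DMSO and 390.2 to 396 CPM in PARGi, mostly THY1 and PDGFRB). Of 3 tested chondrocyte markers 1 was higher and 1 lower (sum 266 to 287 CPM in DMSO and 309 to 320.5 CPM in PARGi, mostly SOX9). SOX9, an activator of cartilage collagen genes, was higher (log2 fold change 0.20 with SE 0.0283, adjusted p = 7.55e-06 by edgeR). ACAN was lower (log2 fold change -0.56 with SE 0.093, adjusted p = 7.8e-05 by edgeR). Blood cell markers summed to at most 1.42 CPM and endothelial ones to at most 4.35 CPM in any library, and KDR was the only one of both lists called, as lower. The part of these shifts in the collagen results was not tested, and in bulk RNA fewer cells of a type cannot be told apart from less RNA per cell.

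Together the 44 genes took 1.05% to 1.15% of all counts of a library. Their levels summed to 10501, 10614 and 11497 CPM in DMSO replicates 1 to 3 and to 10808, 10893 and 10804 CPM in PARGi replicates 1 to 3. DMSO replicate 3 stood above the other libraries in this sum, and the groups overlapped (log2 ratio of the group means -0.0048, or 0.037 without that library). Among the 22 members with a mean of at least 10 CPM, DMSO replicate 3 was the highest DMSO library for 19. Where leaving it out changed a call or a count, the value without it is given.

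Fibrillar genes gave 60.5% to 62.1% of the collagen CPM of a library, a share of RNA counts that also depends on gene length. Protein was not measured. COL1A1, the major chain of type I collagen (chr17:50183289-50201632; coordinates of genes are those of GENCODE 29 on GRCh38), was the most abundant member at 445 RPKM in DMSO and 449 RPKM in PARGi, and it alone gave 39.3% to 41.3% of the collagen CPM of a library. COL3A1, the type III chain found beside type I in soft tissue, followed at 133 RPKM in DMSO and 120.3 RPKM in PARGi. The basement membrane chain COL4A2 (60.1 RPKM in DMSO and 61.9 RPKM in PARGi), the fibril-initiating chain COL5A1 (58.6 RPKM in DMSO and 59.2 RPKM in PARGi) and the beaded-filament chain COL6A1 (53.3 RPKM in DMSO and 48.2 RPKM in PARGi) came next. These neighbours in the order lay close together, and the ranges of COL5A1 and COL4A2 over the libraries overlapped. The levels of the 38 tested members ran down to COL9A1 at 0.0198 RPKM in DMSO and 0.0153 RPKM in PARGi. COL1A2, the partner of COL1A1 in type I collagen, was at only 1.16 RPKM in DMSO and 0.664 RPKM in PARGi.

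**Figure D1:**
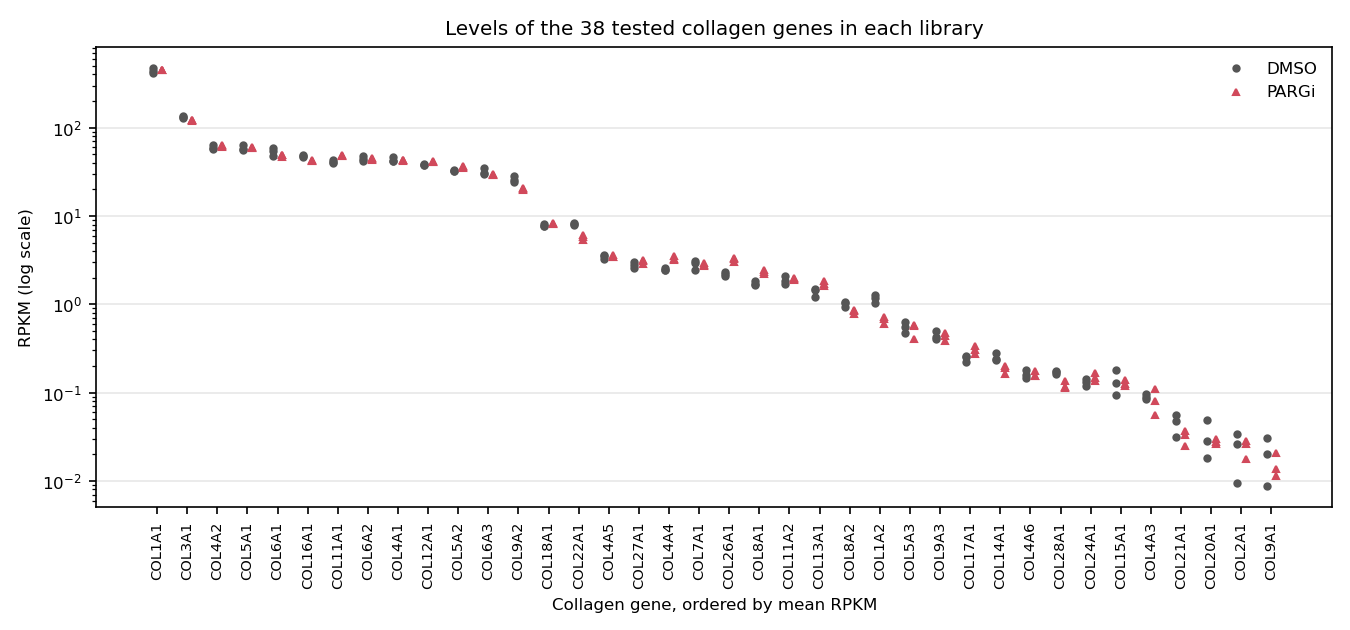
RPKM (log scale) of each tested collagen gene in every library, with DMSO libraries as grey circles and PARGi libraries as red triangles, ordered by mean RPKM. COL1A1 stands at the top at about 447 RPKM, a group of 12 genes from COL3A1 to COL9A2 lies between 23.2 and 127 RPKM, and COL1A2 lies near 0.914 RPKM.

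Each gene was tested with edgeR's quasi-likelihood test over all 20409 genes with enough counts, and a gene is called where its Benjamini-Hochberg adjusted p was under 0.05. The inhibitor group differed from the solvent group in 17 of the 38 tested collagen genes (44.7%), 7 higher and 10 lower, where 24.3% of all tested genes were called, 13.2% as higher and 11.0% as lower. Of the 14504 protein-coding genes tested, 29.8% were called, 2547 as higher and 1769 as lower. The share called grew with abundance. Above 100 CPM, 7 of 12 collagen genes and 38.0% of all tested genes were called, and between 10 and 100 CPM 5 of 10 collagen genes and 35.0% of all. Between 1 and 10 CPM the figures were 4 of 9 and 21.6%, and below 1 CPM 1 of 7 and 5.55%. The median log2 fold change of the collagen genes was -0.016, beside -0.0070 over all tested genes and 0.011 over the protein-coding ones. Groups did not overlap in 16 of the 38, where 38.0% of all tested genes were separated. Apart from COL1A2, the called members changed by less than 1.5-fold.

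The balance of directions was not stable. With DESeq2, without DMSO replicate 1 or without PARGi replicate 3, 7 collagen genes were called as higher and 7 as lower. Without PARGi replicate 2 there were 7 and 6. Without DMSO replicate 3, 17 collagen genes were called as well, but 12 as higher and 5 as lower. COL1A1, COL4A2, COL5A1, COL18A1 and COL27A1 were then higher, and COL6A1, COL6A3, COL8A2, COL14A1 and COL28A1 lost their calls. Correcting for GC content and exonic length gave 20 calls, 11 higher and 9 lower: COL4A2, COL17A1, COL18A1 and COL27A1 were added as higher (adjusted p = 0.0055, 0.0433, 0.0182 and 0.00495) and COL6A3 lost its call. The 7 genes called as higher were also past the threshold in each of the 17 alternatives. So were 5 of the lower genes: COL1A2, COL3A1, COL9A2, COL16A1 and COL22A1.

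**Figure D2:**
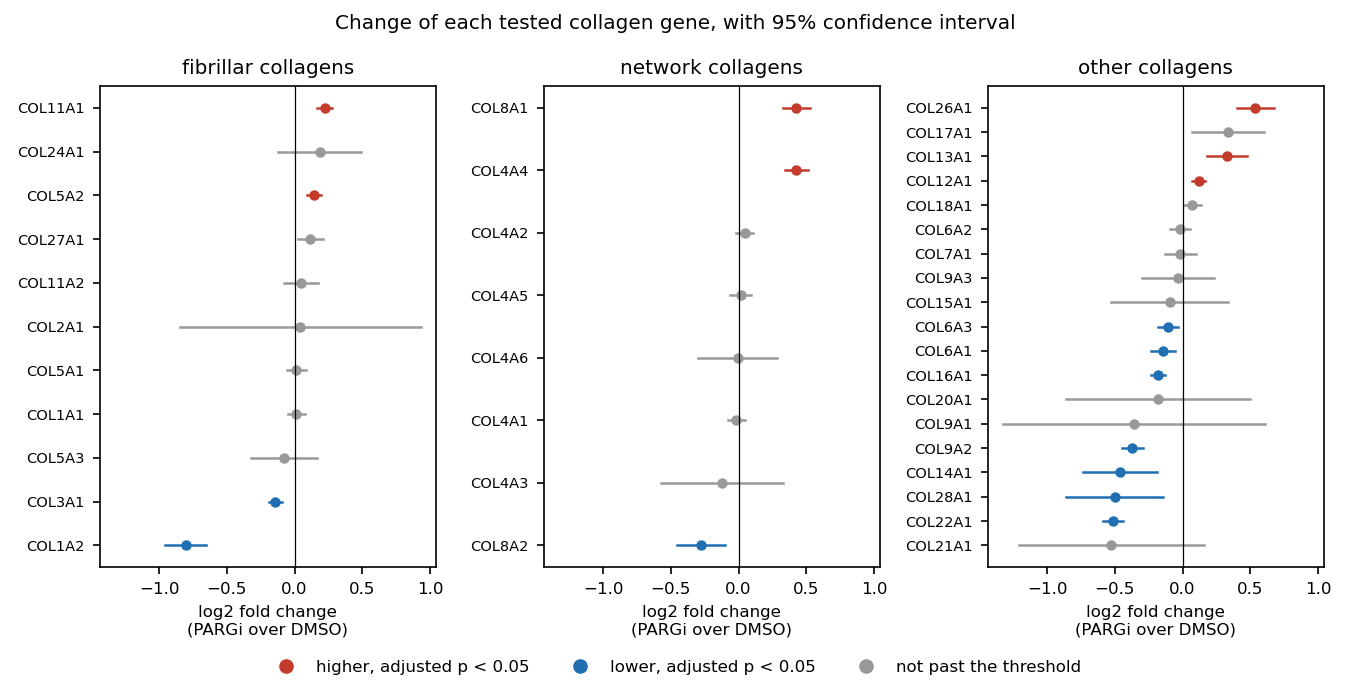
Log2 fold change of PARGi over DMSO (horizontal axis) with its 95% confidence interval for each tested collagen gene, in panels for the fibrillar, network and other classes; red marks genes called higher, blue genes called lower and grey the rest. The largest called fall is that of COL1A2 at -0.80 and the largest called rise that of COL26A1 at 0.54.

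Of the 11 fibrillar genes, all of which were tested, 2 rose and 2 fell, and the median log2 fold change was 0.041. Without DMSO replicate 3, 7 were called, with COL1A1, COL5A1 and COL27A1 added as higher. COL1A2 (chr7:94394561-94431232) encodes the minor chain of type I collagen. It was at 13.0, 11.6 and 14.3 CPM under DMSO (replicates 1 to 3) and 6.65, 7.60 and 7.98 CPM under PARGi. Every PARGi library lay below every DMSO library, and the change of -42.7% was the largest fall of the members called (log2 fold change -0.80 with SE 0.0738, adjusted p = 1.6e-08 by edgeR). COL1A1, the major chain, was at 4128, 4333 and 4659 CPM under DMSO and 4356, 4416 and 4462 CPM under PARGi. The groups overlapped, and the log2 fold change of 0.012 had a 95% interval of -0.049 to 0.074 (edgeR adjusted p = 0.816). Without DMSO replicate 3 the same gene was just past the threshold as higher (log2 fold change 0.059, adjusted p = 0.0487).

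COL3A1 (chr2:188974320-189012746) and COL5A2 (chr2:189031896-189225312) are neighbours on chromosome 2 whose ends face each other across 19.1 kb, and they moved in opposite directions. COL3A1 was at 906, 880.5 and 926 CPM under DMSO and 803, 828 and 827 CPM under PARGi, lower in all PARGi libraries (log2 fold change -0.14 with SE 0.0245, adjusted p = 0.000123 by edgeR). COL5A2, which encodes a chain of the type V collagen that nucleates fibrils, was at 238, 239 and 249 CPM under DMSO and 263, 271 and 267 CPM under PARGi. It was higher in all PARGi libraries (log2 fold change 0.14 with SE 0.0254, adjusted p = 0.000177 by edgeR). COL11A1 (chr1:102876467-103108872), the type XI chain typical of cartilage fibrils, was at 373, 364 and 388 CPM under DMSO and 436, 447 and 428 CPM under PARGi. Its rise was the largest of the class (log2 fold change 0.22 with SE 0.0264, adjusted p = 1.01e-06 by edgeR), and the groups did not overlap.

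The remaining 7 fibrillar genes were not called. COL5A1 (chr9:134641774-134844843), the partner of COL5A2, was at 638, 624 and 706 CPM under DMSO and 669.9, 661 and 656 CPM under PARGi, so that the PARGi range lay inside the DMSO range (log2 fold change 0.013 with SE 0.0324, adjusted p = 0.814 by edgeR). COL27A1 (39.1 ± 3.23 CPM under DMSO and 42.4 ± 1.96 CPM under PARGi, adjusted p = 0.0671) and COL11A2 (12.5 ± 1.30 CPM under DMSO and 13.0 ± 0.349 CPM under PARGi, adjusted p = 0.614), both expressed in cartilage, also missed the threshold in edgeR. COL27A1 passed it as higher without DMSO replicate 3 (adjusted p = 0.001) or PARGi replicate 1 (adjusted p = 0.0453), and COL5A1 without DMSO replicate 3 (adjusted p = 0.0262). With all libraries kept, COL27A1 also passed it with no filter on low counts (edgeR adjusted p = 0.0107). It did so too under the offset for GC content and length (edgeR adjusted p = 0.00495, or 0.0136 with the replicate block). COL5A3 (3.69 ± 0.509 CPM under DMSO and 3.47 ± 0.643 CPM under PARGi) and COL24A1 (1.26 ± 0.112 CPM under DMSO and 1.43 ± 0.141 CPM under PARGi) were low, with edgeR adjusted p-values of 0.684 and 0.416. COL2A1, the main cartilage collagen, had only 4 to 17 counts per library, and its interval from -0.85 to 0.93 shows that changes of the size seen for COL1A2 were not detectable at this depth.

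**Figure D3:**
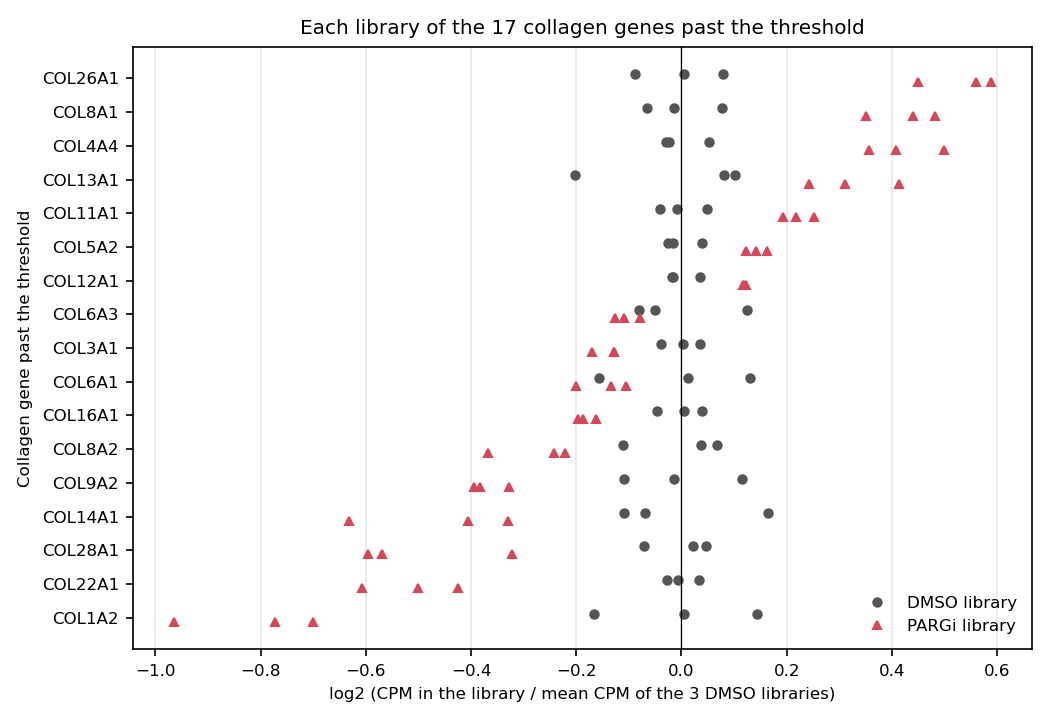
Each library's CPM of the 17 called collagen genes as log2 of its ratio to the mean of the 3 DMSO libraries, with DMSO libraries as grey circles and PARGi libraries as red triangles. The groups are apart for every gene shown but COL6A1 and COL6A3, in which a DMSO library reaches into the PARGi range.

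Network collagens include the type IV chains of the basement membrane and the type VIII and X chains of hexagonal lattices. Of 9 genes, 8 were tested, 2 rose and 1 fell, with a median log2 fold change of 0.0034. Without DMSO replicate 3, 3 were called, all as higher, since COL4A2 was added and COL8A2 lost its call. The 6 type IV genes lie in 3 head-to-head pairs, so that neighbouring chains start from a shared stretch of DNA. RefSeq (GRCh38.p14) places the starts of COL4A1 and COL4A2 127 bases apart, those of COL4A4 and COL4A3 419 bases apart, and that of COL4A5 380 bases from the nearer start of COL4A6. The windows below, from 250 bases before to 50 after a start, are printed because neither gene of the abundant pair was called while 1 gene of a scarcer pair rose. Each reads 5′ to 3′ on the strand of the named gene, and capitals mark matches, on either strand, to the letters GGGCGG (a GC box) or to the letters CCAAT. The COL4A2 window (chr13:110307034-110307333, plus strand) also holds the start of COL4A1. Windows are given for COL4A3 (chr2:227164374-227164673, plus strand) and COL4A4 (chr2:227164156-227164455, minus strand), which overlap by 82 bases.
COL4A2: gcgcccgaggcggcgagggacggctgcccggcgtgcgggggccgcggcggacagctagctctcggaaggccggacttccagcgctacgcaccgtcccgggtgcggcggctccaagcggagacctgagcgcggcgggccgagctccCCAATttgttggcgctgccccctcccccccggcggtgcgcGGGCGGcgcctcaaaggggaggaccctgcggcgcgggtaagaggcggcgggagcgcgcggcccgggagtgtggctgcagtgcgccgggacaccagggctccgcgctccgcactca
COL4A3: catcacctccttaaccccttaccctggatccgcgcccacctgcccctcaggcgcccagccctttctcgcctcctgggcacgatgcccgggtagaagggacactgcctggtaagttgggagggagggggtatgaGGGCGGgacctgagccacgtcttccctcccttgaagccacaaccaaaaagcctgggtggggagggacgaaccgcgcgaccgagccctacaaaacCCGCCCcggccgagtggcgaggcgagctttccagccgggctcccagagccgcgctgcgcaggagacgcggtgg
COL4A4: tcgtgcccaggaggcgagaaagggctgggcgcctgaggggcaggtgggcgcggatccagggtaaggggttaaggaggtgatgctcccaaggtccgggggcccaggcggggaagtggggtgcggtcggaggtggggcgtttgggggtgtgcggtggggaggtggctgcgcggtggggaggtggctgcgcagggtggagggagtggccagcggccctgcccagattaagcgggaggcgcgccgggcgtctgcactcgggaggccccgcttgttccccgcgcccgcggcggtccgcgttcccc
The COL4A2 window held 1 CCAAT, from position -105, and 1 GGGCGG, from position -65, counted from the start site. GGGCGG was in the COL4A3 window from positions -117 and -23, and the COL4A4 window held none of the motifs searched. A missing match says only that these letters are not in the window.

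COL4A1 (chr13:110148963-110307233) and COL4A2 (chr13:110305812-110513209), which form the common basement membrane trimer, were not called. COL4A1 was at 610.1, 625 and 679 CPM under DMSO and 639, 630.4 and 620.5 CPM under PARGi (log2 fold change -0.019 with SE 0.0303, adjusted p = 0.712 by edgeR). COL4A2 was at 1125, 1117 and 1235 CPM under DMSO and 1214, 1210.2 and 1161 CPM under PARGi (log2 fold change 0.044 with SE 0.0306, adjusted p = 0.337 by edgeR). In both, the highest library was DMSO replicate 3 and the groups overlapped. COL4A2 was past the threshold as higher without that library (log2 fold change 0.091, adjusted p = 0.00399) and, with all libraries kept, under the offset for GC content and length (log2 fold change 0.084, adjusted p = 0.0055, or 0.0205 with the replicate block).

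The pair of kidney and lung basement membrane chains, COL4A3 and COL4A4, was uneven. COL4A4 (chr2:227002711-227164453) was at 24.4, 25.8 and 24.5 CPM under DMSO and 31.8, 33.0 and 35.2 CPM under PARGi, and all PARGi libraries were higher (log2 fold change 0.42 with SE 0.0412, adjusted p = 3.94e-08 by edgeR). COL4A3 (chr2:227164565-227314792) had 38 to 80 counts per library and stood at 0.819, 0.879 and 0.766 CPM under DMSO and 0.734, 0.514 and 0.995 CPM under PARGi. Its groups overlapped, and its interval of -0.57 to 0.33 is wide enough to hold no change, a rise and a fall (log2 fold change -0.12 with SE 0.217, adjusted p = 0.741 by edgeR). The third pair, COL4A5 (41.1 ± 2.12 CPM under DMSO and 41.6 ± 1.13 CPM under PARGi) and COL4A6 (1.51 ± 0.166 CPM under DMSO and 1.50 ± 0.115 CPM under PARGi), was not called, with edgeR adjusted p-values of 0.824 and 0.977.

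Type VIII collagen, made by cells of vessel walls and the cornea, changed in its chains in opposite directions. COL8A1 (chr3:99638475-99799226) was at 16.1, 15.6 and 17.2 CPM under DMSO and 20.8, 22.7 and 22.1 CPM under PARGi and was higher in all PARGi libraries (log2 fold change 0.43 with SE 0.0477, adjusted p = 3.75e-07 by edgeR). COL8A2 (chr1:36095236-36125220) was at 4.82, 4.35 and 4.92 CPM under DMSO and 3.97, 3.64 and 4.03 CPM under PARGi and was lower in all PARGi libraries (log2 fold change -0.28 with SE 0.0865, adjusted p = 0.0206 by edgeR). The call of COL8A2 was lost without DMSO replicate 1, DMSO replicate 3 or PARGi replicate 2, with adjusted p-values of 0.0694, 0.0749 and 0.104. COL10A1, the collagen of hypertrophic cartilage, had 2 to 6 counts per library and was not tested.

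Among the 24 genes of other classes, 19 were tested, 3 rose and 7 fell, with a median log2 fold change of -0.10. Of all tested genes 13.2% were called as higher and 11.0% as lower. Without DMSO replicate 3, 7 genes of these classes were called. COL18A1 was then added as higher, and COL6A1, COL6A3, COL14A1 and COL28A1 lost their calls. The fibril-associated collagens, which have interrupted helices and sit on the surface of fibrils, had 9 tested genes, of which 4 fell and 1 rose. Of the 9, 8 had a log2 fold change below 0, as had 10600 of all 20409 tested genes and 6705 of the 14504 protein-coding ones. Of the 4 fibril-associated genes not called, however, 3 (COL9A1, COL9A3 and COL20A1) changed sign when a library was left out. COL22A1 (chr8:138588235-138914006), known from tissue junctions such as those of muscle and tendon, was at 62.5, 63.4 and 65.2 CPM under DMSO and 47.5, 45.0 and 41.8 CPM under PARGi. This fall had the smallest adjusted p of the members (log2 fold change -0.51 with SE 0.0369, adjusted p = 2.78e-10 by edgeR), and every PARGi library lay below every DMSO library. COL9A2 (chr1:40300487-40317813), a chain of the type IX collagen that decorates cartilage fibrils, was at 109, 102 and 119 CPM under DMSO and 87.7, 83.8 and 84.4 CPM under PARGi. It was lower in all PARGi libraries (log2 fold change -0.37 with SE 0.0386, adjusted p = 1.19e-07 by edgeR).

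COL16A1 (chr1:31652247-31704319), a fibril-associated chain of connective tissue, was at 448, 433 and 459 CPM under DMSO and 399, 392 and 389.6 CPM under PARGi, again without overlap (log2 fold change -0.18 with SE 0.0254, adjusted p = 8.67e-06 by edgeR). COL14A1 (chr8:120059780-120372036), a chain found on the fibrils of skin and tendon, was low at 2.00, 2.06 and 2.42 CPM under DMSO and 1.72, 1.39 and 1.63 CPM under PARGi. It fell by more in size but with less precision (log2 fold change -0.46 with SE 0.132, adjusted p = 0.0125 by edgeR), and without DMSO replicate 3 or PARGi replicate 2 its adjusted p was 0.0744 or 0.0836. COL12A1 (chr6:75084326-75206051), which links fibrils under tension, was the member of this class that rose, at 469, 486 and 468 CPM under DMSO and 515, 515 and 516 CPM under PARGi (log2 fold change 0.12 with SE 0.0238, adjusted p = 0.000585 by edgeR). Its PARGi libraries had an SD of 0.908 CPM and all lay above the DMSO range. COL9A3 (2.15 ± 0.238 CPM under DMSO and 2.10 ± 0.234 CPM under PARGi), COL20A1 (0.350 ± 0.170 CPM under DMSO and 0.304 ± 0.0196 CPM under PARGi), COL21A1 (0.317 ± 0.0886 CPM under DMSO and 0.221 ± 0.0427 CPM under PARGi) and COL9A1 (0.144 ± 0.0785 CPM under DMSO and 0.111 ± 0.0341 CPM under PARGi) were not called, with edgeR adjusted p-values of 0.886, 0.742, 0.272 and 0.64.

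Beaded-filament collagen VI surrounds cells in most connective tissue. COL6A1 (chr21:45981737-46005050) was at 287, 256 and 312 CPM under DMSO and 259.9, 265 and 248 CPM under PARGi. Its groups overlapped, since DMSO replicate 2 lay within the PARGi range (log2 fold change -0.15 with SE 0.0436, adjusted p = 0.016 by edgeR). COL6A3 (chr2:237324003-237414375) was at 589, 601 and 679 CPM under DMSO and 578, 590.0 and 571 CPM under PARGi, with DMSO replicate 1 inside the PARGi range and DMSO replicate 3 well above it (log2 fold change -0.10 with SE 0.0356, adjusted p = 0.0335 by edgeR). Both calls were lost without DMSO replicate 3, at log2 fold change -0.077, adjusted p = 0.0948 for COL6A1 and log2 fold change -0.040, adjusted p = 0.243 for COL6A3, and both were lost with DESeq2 (adjusted p = 0.219 and 0.258) and with edgeR's robust dispersion (0.324 and 0.263). Under the offset for GC content and length COL6A3 was at log2 fold change -0.059, adjusted p = 0.145, or 0.215 with the replicate block. The call of COL6A1 was also lost without DMSO replicate 1 (0.0595), PARGi replicate 1 (0.0547) or PARGi replicate 3 (0.118), and that of COL6A3 without PARGi replicate 1 (0.111), 2 (0.0677) or 3 (0.147), each value being an adjusted p. COL6A2, which follows COL6A1 on chromosome 21 in the same orientation, was at 239.9 ± 16.9 CPM under DMSO and 237 ± 7.79 CPM under PARGi and was not called (edgeR adjusted p = 0.798). COL28A1 (chr7:7356203-7535853), a related chain, was at 1.07, 1.16 and 1.14 CPM under DMSO and 0.900, 0.744 and 0.758 CPM under PARGi, lower in all PARGi libraries (log2 fold change -0.50 with SE 0.173, adjusted p = 0.0369 by edgeR). Its call was lost in 9 of the 17 alternatives, among them DESeq2, the replicate block (adjusted p = 0.0537) and the removal of any library but PARGi replicate 1 (adjusted p from 0.0601 to 0.122).

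The remaining members span membranes, anchor epithelia or carry anti-angiogenic fragments. COL26A1 (chr7:101362820-101559024), a short and atypical member, was at 7.03, 7.40 and 6.58 CPM under DMSO and 10.3, 9.56 and 10.5 CPM under PARGi. Its rise was the largest of all members called (log2 fold change 0.54 with SE 0.0648, adjusted p = 1.14e-06 by edgeR), and every PARGi library lay above every DMSO library. The transmembrane chain COL13A1 (chr10:69801867-69964275), known from neuromuscular junctions, was at 8.71, 7.05 and 8.59 CPM under DMSO and 9.60, 10.1 and 10.8 CPM under PARGi and also rose in all PARGi libraries (log2 fold change 0.33 with SE 0.0721, adjusted p = 0.00161 by edgeR). COL17A1, the transmembrane chain of hemidesmosomes, was separated in the same direction at 1.72 ± 0.137 CPM under DMSO and 2.16 ± 0.220 CPM under PARGi but missed the threshold (log2 fold change 0.33 with SE 0.128, adjusted p = 0.0618 by edgeR).

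COL7A1, the anchoring fibril chain of skin, was at 31.0 ± 3.71 CPM under DMSO and 30.7 ± 1.25 CPM under PARGi (edgeR adjusted p = 0.873). COL18A1, the source of endostatin, was at 66.2 ± 2.04 CPM under DMSO and 69.6 ± 1.60 CPM under PARGi (log2 fold change 0.070, edgeR adjusted p = 0.0951, or 0.0206 without DMSO replicate 3), and COL15A1 was at 0.891 ± 0.285 CPM under DMSO and 0.846 ± 0.0690 CPM under PARGi (edgeR adjusted p = 0.798). Exons of COL18A1 overlap those of SLC19A1 on the opposite strand, and the strand setting of the counting is not given, so reads there may be shared. The 6 members that were not tested had at most 17 counts in a library: COL6A5, COL6A6, COL10A1, COL19A1, COL23A1 and COL25A1.

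RefSeq windows are printed for COL26A1, the largest rise, and for COL9A2, the steepest fall among genes called in every alternative and held in the table used, which had 32 of the 44 collagen genes and 10 of the 17 called ones. They lie at chr7:101362625-101362924, plus strand, and at chr1:40317237-40317536, minus strand, with capitals as above.
COL26A1: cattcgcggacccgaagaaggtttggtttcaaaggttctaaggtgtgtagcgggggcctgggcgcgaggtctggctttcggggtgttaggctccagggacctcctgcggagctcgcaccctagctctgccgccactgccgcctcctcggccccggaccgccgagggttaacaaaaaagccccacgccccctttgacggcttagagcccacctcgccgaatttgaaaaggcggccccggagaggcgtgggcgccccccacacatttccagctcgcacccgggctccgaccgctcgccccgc
COL9A2: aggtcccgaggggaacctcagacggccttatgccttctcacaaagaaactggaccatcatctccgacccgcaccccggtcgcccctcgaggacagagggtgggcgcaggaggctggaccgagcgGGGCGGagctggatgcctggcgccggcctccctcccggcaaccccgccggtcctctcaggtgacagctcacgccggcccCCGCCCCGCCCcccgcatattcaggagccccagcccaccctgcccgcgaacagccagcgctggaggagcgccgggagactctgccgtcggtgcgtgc
The COL9A2 window held GGGCGG from positions -126, -47 and -42, the last pair overlapping by a single base, and the COL26A1 window held none of the motifs searched. Over the 44 collagen windows, some genes having several, GGGCGG was in 24 (54.5%), beside 45.0% of all 35116 RefSeq windows of 300 bases. CCAAT was in 14 (31.8%), beside 34.6% of all, and the TATA box, searched as TATAAA, was in 8 (18.2%), beside 11.5% of all. The E-box CACGTG was in 0 of the 44, beside 7.26% of all, and the AP-1 motif, searched as TGANTCA, was in 1, beside 7.71% of all. Counted by gene, with a match in any of its windows, GGGCGG was found in 2 of the 5 called higher genes with a window. It was found in 3 of the 5 called lower ones and in 14 of the 17 tested but not called. Genes with several windows have more chances of a match, so these counts are not comparable with the shares of windows. Both strands were searched.

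Chains that join in a trimer, or share a type, were next compared with each other inside each library, since their ratio does not depend on the scaling between libraries. The log2 ratio of RPKM was compared between groups for 9 pairs by exact two-sided permutation tests, in which 3 against 3 libraries cannot give a p below 0.1. In 6 pairs the groups did not overlap, each with an exact permutation p of 0.1 (0.15 adjusted over the 9 pairs), so none passed 0.05 and none could. All of these but COL4A1 over COL4A2 held a chain already called, so they partly repeat the calls per gene. The share of separated ratios among other gene pairs was not computed, while 38.0% of single tested genes were separated. The ratio of COL1A1 to COL1A2 moved most: its log2 was 8.49, 8.73 and 8.53 in the DMSO libraries and 9.54, 9.37 and 9.31 in the PARGi libraries. On average COL1A1 exceeded COL1A2 384-fold per kilobase in DMSO and 678-fold in PARGi. For COL8A1 over COL8A2 the log2 ratio was 0.73, 0.83 and 0.79 in the DMSO libraries and 1.38, 1.63 and 1.45 in the PARGi libraries, a change from 1.72-fold to 2.80-fold.

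The abundant pairs moved by much less. COL4A1 over COL4A2 had a log2 ratio of -0.49, -0.45 and -0.47 in the DMSO libraries and -0.54, -0.55 and -0.52 in the PARGi libraries, a difference of -0.062. The differences for COL5A1 over COL5A2 (-0.13), COL6A1 over COL6A2 (-0.13) and COL11A1 over COL11A2 (0.16) were also separated between groups. Those for COL9A2 over COL9A3 (-0.34, exact permutation p = 0.2), COL6A1 over COL6A3 (-0.039, p = 0.6) and COL4A5 over COL4A6 (0.018, p = 0.9) overlapped. COL4A3 over COL4A4 was added after its values were seen: COL4A4 exceeded COL4A3 27.4-fold in DMSO and 41.8-fold in PARGi, with an SD of the log2 ratio of 0.0664 in DMSO and 0.437 in PARGi. The log2 difference of -0.61 became -0.37 without PARGi replicate 2 and -0.80 without PARGi replicate 3.

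**Figure D4:**
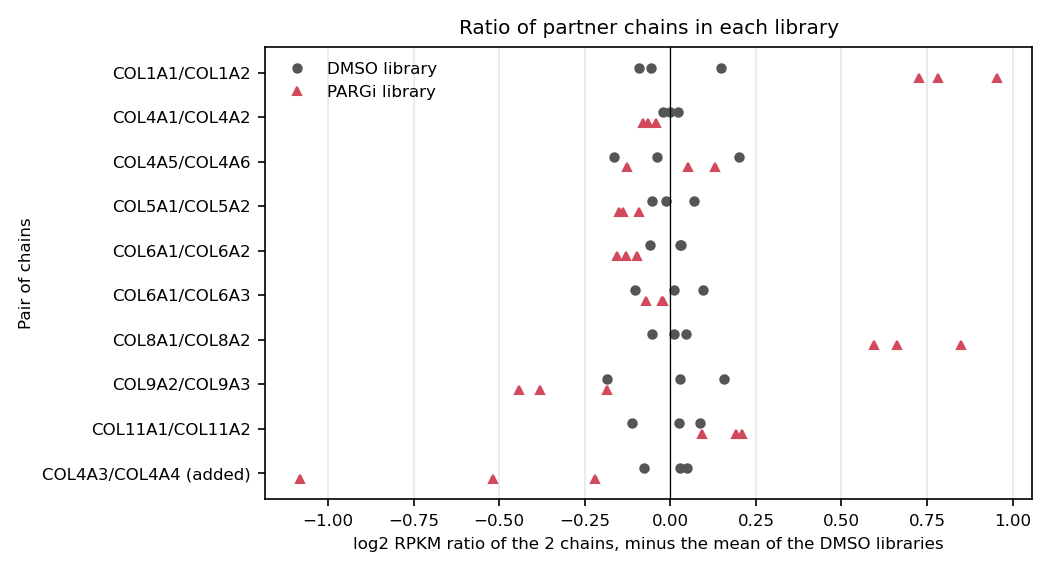
Log2 RPKM ratio of 10 pairs of collagen chains in each library, shifted so that the mean of the DMSO libraries (grey circles) is 0; red triangles are PARGi libraries. The PARGi libraries of COL1A1/COL1A2 and COL8A1/COL8A2 lie 0.70 or more above 0 on average, whereas those of COL4A3/COL4A4 spread widely below it.

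Summed by class, fibrillar genes were at 6620.0 ± 342 CPM under DMSO against 6664 ± 63.1 CPM under PARGi (mean ± SD of 3 libraries), and network genes at 1886 ± 102 and 1928 ± 36.7 CPM. Both sums overlapped between groups, with log2 ratios of means of 0.0097 and 0.031, or 0.052 and 0.077 without DMSO replicate 3. The other classes summed to 2324, 2281 and 2488 CPM in DMSO and 2261, 2258 and 2208 CPM in PARGi, so each PARGi library lay below each DMSO library, by a log2 ratio of means of -0.076. Without DMSO replicate 3 that ratio was -0.038. In all 3 sums the spread over the DMSO libraries was larger than over the PARGi libraries.

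The genes that modify, export, trim, cross-link, bind and cleave collagen were described from a list of 68. Of its 64 tested members 33 were called, 22 higher and 11 lower (51.6%, beside 24.3% of all tested genes). The median log2 fold change of the 64 was 0.040, beside -0.0070 over all tested genes and 0.011 over the protein-coding ones. The share called was 29.8% of protein-coding genes, 35.0% of all genes between 10 and 100 CPM and 38.0% above 100 CPM. Beside the role counts below, 13.2% of all tested genes were called as higher and 11.0% as lower. Of the 14504 protein-coding genes tested, 2547 were called as higher and 1769 as lower. Between 10 and 100 CPM these counts were 1660 and 1039 of all 7722 tested genes, and above 100 CPM 583 and 337 of 2421. Hydroxylation of proline and lysine residues stabilises the helix and prepares cross-links. Of 12 genes for it, 8 rose and 0 fell. P4HA2, a catalytic subunit of the collagen prolyl hydroxylase, went from 105 ± 0.935 to 118 ± 2.25 CPM (log2 fold change 0.18 with SE 0.0261, adjusted p = 1.89e-05 by edgeR), its sister subunit P4HA1 from 113 ± 0.426 to 124 ± 2.14 CPM (log2 fold change 0.13 with SE 0.0256, adjusted p = 0.000521 by edgeR), and CRTAP, a subunit of another prolyl hydroxylation complex, from 124 ± 1.45 to 134 ± 1.43 CPM (log2 fold change 0.11). The values after ± are SDs over 3 libraries. The count of higher genes was 6 with upper-quartile scaling, with protein-coding genes alone, with the replicate block or without DMSO replicate 3. It was 5 without DMSO replicate 1, PARGi replicate 1 or PARGi replicate 2, and 0 genes were lower in each of the 17 alternatives. COLGALT1, which adds galactose to hydroxylysine, went from 166 ± 6.42 to 183 ± 3.54 CPM (log2 fold change 0.14 with SE 0.0283, adjusted p = 0.000684 by edgeR).

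Among 7 chaperone and isomerase genes 4 rose and 1 fell. SERPINH1, the collagen chaperone HSP47, went from 682 ± 7.11 to 724 ± 16.1 CPM (log2 fold change 0.084 with SE 0.0239, adjusted p = 0.0114 by edgeR), a small rise that was not called with upper-quartile scaling, without PARGi replicate 1 or without PARGi replicate 2 (adjusted p = 0.0803, 0.0781 and 0.0612). FKBP14, a prolyl isomerase of the endoplasmic reticulum, went from 51.8 ± 1.54 to 57.1 ± 0.841 CPM (log2 fold change 0.14) and FKBP9, another one, from 113 ± 1.21 to 120.1 ± 1.13 CPM (0.094), the latter also not called with upper-quartile scaling or without PARGi replicate 3 (adjusted p = 0.0567). FKBP10, an isomerase mutated in brittle bone disease, fell from 193 ± 2.27 to 178 ± 3.83 CPM (log2 fold change -0.12 with SE 0.0253, adjusted p = 0.00125 by edgeR). This group had 2 higher and 2 lower with upper-quartile scaling, 4 and 2 with protein-coding genes alone, and 2 and 1 without PARGi replicate 3. Of 7 export genes only MIA2, a partner of the cargo receptor for procollagen, was called, from 23.5 ± 0.887 to 20.8 ± 0.423 CPM (log2 fold change -0.18 with SE 0.0418, adjusted p = 0.00297 by edgeR).

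Of 8 genes for the removal of propeptides, 3 rose and 1 fell. The lower count was 0 with DESeq2 or without DMSO replicate 1, DMSO replicate 3, PARGi replicate 2 or PARGi replicate 3, and 2 genes in place of 3 were higher without DMSO replicate 2, PARGi replicate 1 or PARGi replicate 3. PCOLCE2, an enhancer of procollagen C-proteinase, went from 9.70 ± 0.268 to 12.1 ± 0.667 CPM (log2 fold change 0.32 with SE 0.0567, adjusted p = 0.00017 by edgeR), ADAMTS3, an N-proteinase, from 15.2 ± 0.783 to 17.1 ± 0.259 CPM (log2 fold change 0.18), and BMP1, the C-proteinase, from 78.0 ± 3.53 to 84.9 ± 3.33 CPM (0.12). Of 5 lysyl oxidase genes, which start cross-linking, 2 fell: LOX from 88.2 ± 5.33 to 79.2 ± 1.87 CPM (log2 fold change -0.16 with SE 0.0345, adjusted p = 0.00168 by edgeR) and LOXL3 from 7.85 ± 0.392 to 6.91 ± 0.164 CPM (-0.19, adjusted p = 0.0373). LOXL3 lost its call in 9 of the 17 alternatives, among them the removal of any library but DMSO replicate 1 (adjusted p from 0.0558 to 0.15). ADAMTS3 lost its call without DMSO replicate 3 (adjusted p = 0.0519), and BMP1 without DMSO replicate 2, PARGi replicate 1 or PARGi replicate 3 (adjusted p = 0.0547, 0.0813 and 0.051).

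Fibril partners, receptors and proteases held the largest changes among the called genes of the list. Of 8 tested fibril partners 1 rose and 3 fell. Without PARGi replicate 3 only 1 was lower, and without DMSO replicate 1 or 2 there were 4. The higher genes numbered 2 without DMSO replicate 2, with DESeq2, with limma-voom, with no filter on low counts and under the offset for GC content and length. BGN, a small proteoglycan that binds type I fibrils, was at 6.10, 5.23 and 5.68 CPM under DMSO and 3.05, 3.06 and 3.03 CPM under PARGi, less in every PARGi library (log2 fold change -0.90 with SE 0.0869, adjusted p = 3.88e-08 by edgeR). SPARC, an abundant collagen-binding protein of bone, fell from 1677 ± 17.1 to 1583 ± 10.9 CPM (log2 fold change -0.083, not called without PARGi replicate 3, adjusted p = 0.054), and LUM, another small proteoglycan, rose from 6.70 ± 0.312 to 8.45 ± 0.142 CPM (0.33). Of 9 tested receptor genes 3 rose and 1 fell, and without DMSO replicate 3 the higher genes numbered 5. ITGA2, an integrin subunit that binds collagen, was at 15.4, 16.7 and 16.3 CPM under DMSO and 28.3, 26.9 and 27.4 CPM under PARGi (log2 fold change 0.77 with SE 0.0429, adjusted p = 3.99e-12 by edgeR). ITGA11, an integrin subunit of mesenchymal cells that binds fibrillar collagen, moved the other way, at 64.8, 70.9 and 66.3 CPM under DMSO and 43.4, 43.8 and 43.2 CPM under PARGi (log2 fold change -0.63 with SE 0.0334, adjusted p = 1.65e-12 by edgeR). DDR2, a receptor tyrosine kinase for fibrillar collagen, rose from 48.8 ± 0.648 to 57.1 ± 0.968 CPM (0.23).

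Of 6 tested genes for collagen cleavage 2 rose and 2 fell. MMP9, a gelatinase, was at 5.03, 5.97 and 5.79 CPM under DMSO and 9.07, 9.29 and 8.26 CPM under PARGi (log2 fold change 0.66 with SE 0.0736, adjusted p = 3.47e-07 by edgeR). MMP2, the more abundant gelatinase, fell from 827 ± 14.1 to 732 ± 24.8 CPM (log2 fold change -0.18 with SE 0.0258, adjusted p = 1.81e-05 by edgeR), and the collagenase MMP13 fell from 10.4 ± 0.510 to 7.11 ± 0.321 CPM (log2 fold change -0.55 with SE 0.0627, adjusted p = 5.11e-07 by edgeR). All genes of the list named here were called and had separated groups, as had 4767 of the 4951 called genes among all tested.

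**Figure D5:**
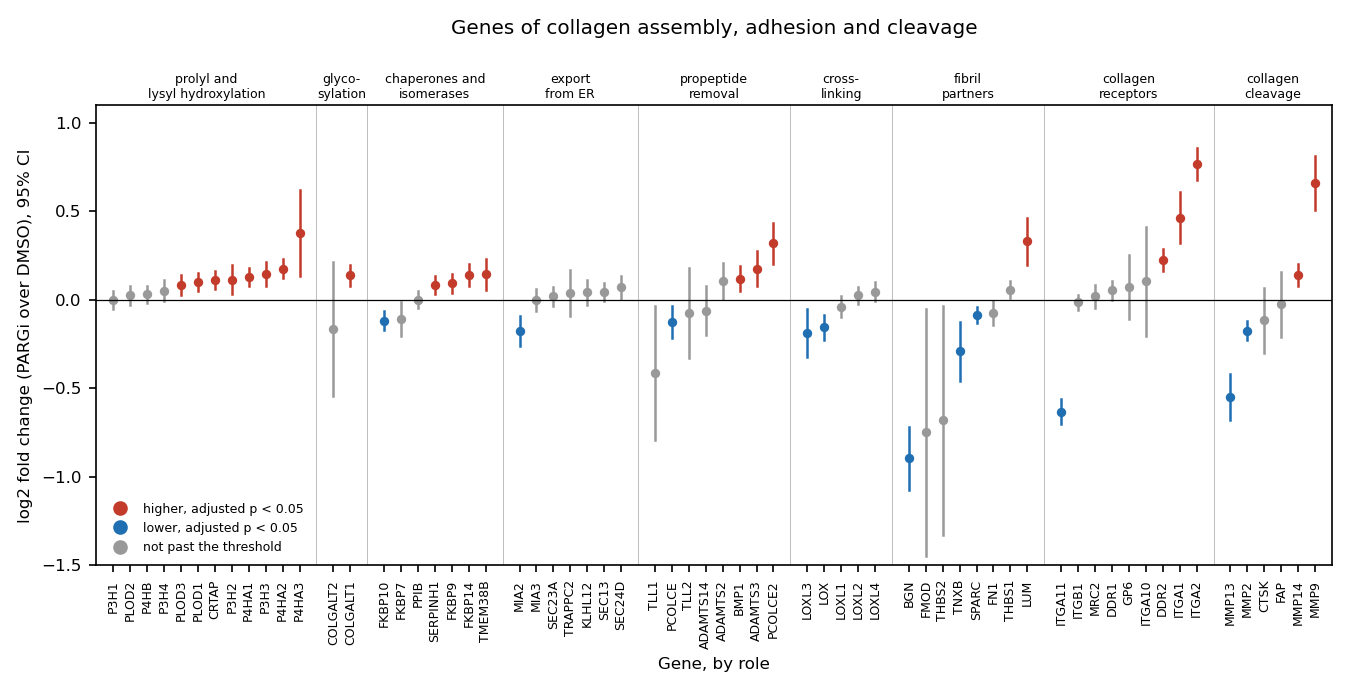
Log2 fold change of PARGi over DMSO with its 95% confidence interval (vertical axis) for the 64 tested genes that act on or with collagen, grouped by role; red marks genes called higher, blue genes called lower and grey the rest. All 8 called hydroxylation genes lie above 0, while receptors run from ITGA11 at -0.63 to ITGA2 at 0.77.

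Features that the choice of members did not use were compared between called groups as a description. The 7 higher genes had a median transcript GC content of 47.9% (46.3% to 64.2%), the 10 lower genes of 56.0% (41.7% to 64.8%) and the 21 tested genes not called of 61.1% (44.5% to 67.4%). Exonic length overlapped widely, with medians of 9091 bases for higher and 7320.5 bases for lower genes. All 7 higher genes and 9 of the lower genes were also called with the offset for GC content and length. The higher and lower genes also overlapped in level, from 1.55 to 44.6 RPKM for the higher and from 0.145 to 127 RPKM for the lower ones.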

How the data were processed

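RNA sequencing counts of 6 libraries, 3 of DMSO-treated and 3 of PARGi-treated U2OS cells, were analysed. Groups and replicate numbers came from the sample titles. Each deposited file pairs gene identifiers with whole counts, to which no scaling had been applied. The submitters' processing notes name cutadapt 1.18, STAR 2.7.3a, SAMtools 1.9, DESeq2 3.12 and deepTools and the build hg38, without roles. The annotation release, the strand setting and the treatment of reads that match several genes are not given in the sources used here. Library preparation kept the strand, per the labels' protocols.

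All 60708 rows name a gene. Symbols were looked up by Ensembl identifier, and biotype, position and exonic length from GENCODE 29 (GRCh38), matched without the version. Testing used edgeR 4.0.16 under R 4.3.3: filterByExpr, TMM scaling, glmQLFit and two-sided glmQLFTest on treatment, Benjamini-Hochberg adjustment over 20409 genes and a threshold of 0.05. The SE is the absolute log2 fold change over the square root of F. RPKM is the scaled CPM per kilobase of exon. Alternatives were DESeq2 1.42.0, limma-voom (limma 3.58.1), other scalings, filters and gene sets, robust dispersion, an offset by loess (span 0.3) on GC content and length, the replicate block, a threshold of 0.01 and each library left out in turn. Ratios of chains were compared with SciPy 1.17.1 by exact permutation. The scripts were tested on simulated data. Figures were drawn with matplotlib 3.10.9.

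The members, the lists and the tests were chosen with earlier results of these data known. Named genes were all members, and in each role of the list of 68 up to 3 called genes with the smallest p, besides SERPINH1, P4HA1 and LOX. TNXB, ITGA1, MMP14 and other called genes outside this rule are counted but not described. The precision is set by the spread between 3 libraries at 60286931 to 80605145 counts each. The labels mention no molecular identifiers.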

Additional observations from a re-analysis of the deposited data

How the results depend on the processing

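Of the 17 called collagen genes, 12 were past the threshold in each of the 17 alternatives and none changed sign; COL6A1, COL6A3, COL8A2, COL14A1 and COL28A1 lost their calls in some. With all libraries kept and the threshold at 0.05, the count of called collagen genes ran from 14 (DESeq2) to 20 (GC and length offset). With a library left out it ran from 13 to 17, with 7 to 12 higher and 5 to 9 lower, 4 to 7 fibrillar, 2 to 3 network and 7 to 9 other. The extremes of 12 higher and 5 lower, and of 7 fibrillar genes, came without DMSO replicate 3, and the 6 lower genes without PARGi replicate 2 were the next fewest. The offset for GC content and length gave 11 higher genes. At an adjusted p under 0.01, 12 collagen genes were called, of which 5 were lower and 6 of other classes, by a stricter threshold alone. Genes of the list of 68 called with a library left out numbered 25 to 33, with 7 to 11 lower, the fewest without PARGi replicate 3. Among all tested genes 54.5% of calls were higher, against 40.5% with upper-quartile scaling and 65.1% with the GC and length offset.

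Among collagen genes, signs differed only for members not called. With upper-quartile scaling and with protein-coding genes alone the log2 fold change was -0.012 and -0.0030 for COL1A1, -0.0097 and -0.00055 for COL4A5, and -0.011 and -0.0018 for COL5A1. With the GC and length offset, without and with the replicate block, it was 0.013 and 0.014 for COL4A1, 0.014 and 0.011 for COL4A6, and 0.0025 and 0.0058 for COL7A1. With a library left out the range was -0.028 to 0.059 for COL1A1, -0.31 to 0.46 for COL2A1, -0.050 to 0.028 for COL4A1, -0.41 to 0.10 for COL4A3, -0.023 to 0.049 for COL4A5, -0.074 to 0.088 for COL4A6, -0.021 to 0.069 for COL5A1, -0.17 to 0.051 for COL5A3, -0.062 to 0.039 for COL6A2, -0.11 to 0.058 for COL7A1, -0.69 to 0.045 for COL9A1, -0.10 to 0.054 for COL9A3, -0.012 to 0.14 for COL11A2, -0.29 to 0.19 for COL15A1 and -0.48 to 0.25 for COL20A1. The same ranges were -0.064 to 0.12 for the ratio of COL4A5 to COL4A6 and -0.092 to 0.0081 for that of COL6A1 to COL6A3. The cause of these moves was not tested. Same-numbered libraries of the groups did not deviate together (r of deviations -0.0059, 0.016 and -0.0078 across genes, which are not independent), and the labels tie no number to a shared day or culture. The replicate block gave 16 called collagen genes in place of 17, losing COL28A1, and 30 in place of 33 genes of the list of 68. Depth limits the members under 1 CPM, whose SE of the log2 fold change ran from 0.173 (COL28A1) to 0.468 (COL9A1).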
